A study of Mus musculus with 26 samples.

Results

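Glycine and glutamate tRNA fragments were examined as the entries for tRNA-Gly and tRNA-Glu in a table of small RNA counts from the mouse hippocampus. All entries of these amino acids were taken by name, which gave 36 of the 1360 entries of the table. The amino acids themselves were chosen with earlier results of these data known. Of these, 30 belong to tRNA-Gly-GCC, tRNA-Gly-CCC, tRNA-Gly-TCC, tRNA-Glu-CTC and tRNA-Glu-TTC, and 6 to the rare tRNA-Gly-ACC. For each tRNA there is a whole entry, with all counts assigned to it, and entries for counts from its 5′ end, 3′ end and CCA end, which are contained in the whole entry. Counts that matched the tRNA annotation but not the genome have entries of their own, called unmatched here. In all there were 12 whole, 6 5′ end, 6 3′ end and 12 CCA end entries.

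Transfer RNAs carry amino acids to the ribosome, and the letters after the amino acid give the anticodon. They can be cut in the anticodon loop into a 5′ and a 3′ piece or elsewhere into shorter fragments, and 5′ fragments of glycine and glutamate tRNAs are among the commonly sequenced small RNAs of many tissues. The enzyme angiogenin makes such cuts in stressed cells. A mature tRNA ends in CCA, which is added after transcription and is not encoded in the nuclear genes of mammals. Many bases of a tRNA are modified, which can stop reverse transcription or lead to misread bases, so that some fragments are sequenced less readily than others.

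The study asked what a brief swim changes in the dorsal (dHC) and ventral (vHC) hippocampus. Male C57BL/6J mice of 2 to 3 months swam for 6 min in water at 18 °C and tissue of both hemispheres was taken 45 min after the start, while control mice stayed in the home cage. Control vHC had 8 libraries and the other 3 groups had 6 each, and every library carries the date of 1 of 3 blocks. Blocks 2 and 3 held 2 libraries per group, and so did block 1 except for its 4 control vHC libraries. The labels do not say which libraries came from the same mouse, so p-values measure the spread between these libraries.

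Library totals were between 502251 and 5380780 counts, and control dHC library 24 was the shallowest. Whole tRNA entries took between 2.51% and 5.35% of the counts of a library and rRNA between 3.48% and 7.03%. The summed level of 11 brain miRNA entries (mir-9, mir-124, mir-128, mir-132 and mir-138) was between 152051 and 299627 CPM (counts scaled to equal library totals), and 0 of the 11 were at 0. Markers of red blood cells summed to between 597 and 906 CPM, of choroid plexus to between 1507 and 4782, of leukocytes to between 127 and 423 and of endothelium to between 3335 and 10384. Their part in the results was not tested.

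Glycine and glutamate were the leading amino acids among the tRNA counts. Over all libraries, glycine tRNAs held 34.6% and glutamate tRNAs 19.7% of the whole tRNA counts, followed by lysine with 10.1%. In single libraries the share of both together was between 47.2% and 61.5%. The genome-matched entry of Gly-GCC, which reads glycine codons ending in C or U, was the most abundant of all whole tRNA entries with 25.3% of tRNA counts. Glu-CTC, which reads the GAG codon, was next with 13.8%. Gly-CCC had rank 4 with 6.42%, and Glu-TTC and Gly-TCC held 2.10% and 1.52%. Gly-ACC held 0.0674%, or 1940 counts over the 26 libraries. Levels of entries were not divided by length, so these are shares of counts.

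RefSeq lists 14 genes for Gly-GCC, 12 for Glu-CTC, 8 for Glu-TTC, 7 for Gly-TCC, 6 for Gly-CCC and 1 for Gly-ACC in GRCm38.p6. Those of Gly-GCC and Gly-CCC are 71 bases long and those of Glu-CTC, Glu-TTC and Gly-TCC 72. On chromosome 1 a Gly-GCC gene (n-TGgcc12, 171066631 to 171066701) lies near a Glu-CTC gene (n-TEctc5, 171064164 to 171064235). Of all values, 29.5% were not whole, and how reads that fit several tRNAs were divided is not given in the sources used here, so the split between closely similar tRNAs, such as Gly-GCC and Gly-CCC, is uncertain.

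Most of the Gly-GCC counts came from the 5′ end. Pooled over the libraries, 5′ end counts made up 71.4% of the genome-matched Gly-GCC entry, 50.9% of Glu-CTC, 50.4% of Gly-TCC, 42.5% of Gly-CCC and 38.0% of Glu-TTC. The share of Gly-GCC was the highest of the 39 tRNAs that had a tested 5′ end entry, ahead of Val-TAC with 67.8%. These 5 tRNAs all ranked among the first 10, and so did Val-TAC and tRNAs of lysine, valine and serine. Lys-CTT (45.4%), Val-AAC (43.6%) and Val-CAC (42.9%) were above Gly-CCC and Glu-TTC, and Ser-CGA (38.8%) was above Glu-TTC. The other 34 tRNAs had a median of 17%. Glycine and glutamate tRNAs together held 75.7% of all 5′ end counts.

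The spread between libraries differed from tRNA to tRNA. The Gly-GCC 5′ share was between 67.1% and 76.7% in the 26 libraries, that of Glu-CTC between 36.3% and 57.9%, and that of Gly-TCC between 39.3% and 59.5%. The lowest Gly-GCC value was above the highest Glu-CTC value. By contrast, the order of Glu-CTC, Gly-TCC and Gly-CCC cannot be read from single libraries, since their ranges overlapped.

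**Figure D1:**
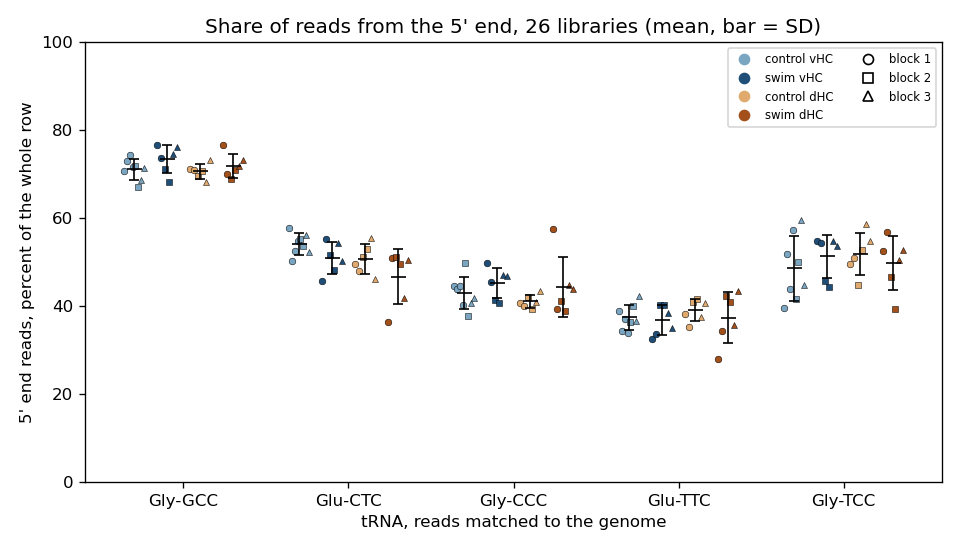
Counts from the 5′ end as percent of the genome-matched whole entry, for 5 tRNAs in 26 libraries. Points are libraries, colour gives the group, shape the block, and bars the mean and SD. Gly-GCC lies between 67.1% and 76.7%, above the other 4 tRNAs in every library.

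Counts from the other end of the molecule were few. The 3′ end and CCA end entries together made up 0.582% of the counts of glycine and glutamate tRNAs. The 3′ end of Gly-GCC had 249 counts in all against 519496 for its 5′ end. An exception was the unmatched entry of Gly-CCC, of which CCA end counts made up between 6.72% and 32.2%, with a median of 14.7%.

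The tRNAs also differed in how much of their counts did not match the genome. For Glu-TTC, which reads GAA, the unmatched share was between 40.2% and 61.6%. It was between 0.231% and 16.6% for Glu-CTC and between 6.13% and 23.9% for Gly-CCC. In Gly-GCC and Gly-TCC it did not pass 3.14%. Glu-TTC was thus the only one of these 5 with an unmatched share over 40% in every library.

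Of the 36 entries, 25 passed the filter on low counts and were tested among 621 entries of the whole table. The 11 that did not pass were the 3′ end and CCA end of Glu-CTC (83.7 and 175 counts in all), the unmatched CCA end of Glu-TTC (146), the CCA end of Gly-CCC (190), 3 ends of Gly-TCC (2 to 122) and 4 entries of Gly-ACC (0.39 to 35.0).

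The first comparison was of swim with control. No level of a glycine or glutamate tRNA entry differed past the threshold (adjusted p under 0.05) in either region. In control vHC the lowest, median and highest normalized CPM of Gly-GCC were 5093, 10486 and 15540, and after swim they were 9142, 9717 and 10910. In control dHC they were 7962, 9490 and 16256, and after swim 8138, 9910 and 10571. The swim libraries lay within the range of the controls in both regions.

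The log2 fold change of Gly-GCC was 0.09 in vHC (standard error 0.17, adjusted p = 0.899 in edgeR) and -0.02 in dHC (standard error 0.18, adjusted p = 0.999). As a fold, the 95% interval was 0.850 to 1.33 in vHC and 0.776 to 1.25 in dHC. Its 5′ end, whose counts lie within the whole entry, gave 0.13 with a standard error of 0.17 in vHC. In dHC the 5′ end gave 0.000928 with a standard error of 0.18, and neither passed the threshold.

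For Glu-CTC the groups overlapped as well. The lowest, median and highest normalized CPM were 3451, 5816 and 8417 without swim and 4221, 5048 and 6113 with it in vHC. The same values in dHC were 4113, 5218 and 8384 without swim and 3410, 5518 and 7061 with it. In vHC the log2 fold change was -0.055 with a standard error of 0.13 (adjusted p = 0.945 in edgeR). In dHC it was 0.04 with a standard error of 0.14 (adjusted p = 0.999 in edgeR). For its 5′ end the values were -0.11 and -0.08, with standard errors of 0.15 in both regions.

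**Figure D2:**
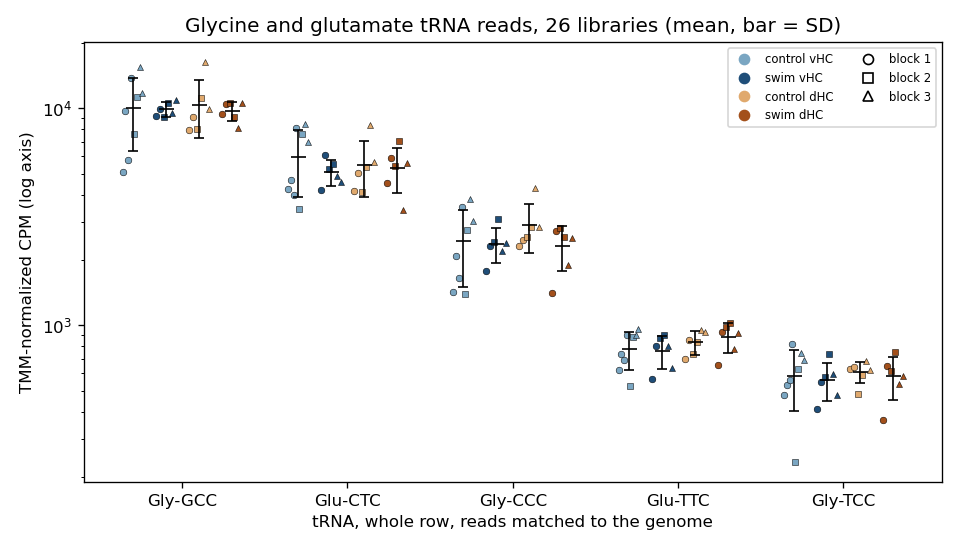
TMM-normalized CPM, on a log axis, of the genome-matched whole entries of 5 tRNAs in 26 libraries. Points are libraries, colour gives the group, shape the block, and bars the mean and SD. For Gly-GCC the swim libraries lie between 8138 and 10910 and the control libraries between 5093 and 16256.

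Across the 25 entries, 0 were called in vHC, in dHC, for the interaction and when stress and interaction were dropped together. Over the 621 entries 0% were called in each of these 4 tests, with 39, 17, 19 and 15 at an unadjusted p under 0.05 and 0 called by DESeq2 among the 25. The median log2 fold change of the 25 was 0.09 in vHC and 0.00129 in dHC, against 0.00584 and -0.00203 over all 621. Among 20 tested entries of the other tRNAs known as sources of 5′ fragments (Val-CAC, Val-AAC, Lys-CTT, Lys-TTT, His-GTG and Asp-GTC), 0 were called as well.

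The entry with an unadjusted p under 0.05 was unmatched Glu-CTC in vHC, with a log2 fold change of 0.50 (standard error 0.24, adjusted p = 0.719 in edgeR). It was the most variable of the abundant entries. In control vHC its normalized CPM ran from 7.98 in library 17 to 1375 (median 643) and after swim from 94.1 to 1103 (median 539), so the groups overlapped and the median was lower after swim while the fitted change, adjusted for 2 surrogate variables, was positive. Within blocks the change of mean log2 CPM was -1.49, 3.29 and -1.30. Without control vHC 17 the fitted change turned to -0.36, without surrogate variables to -0.27, and with block in their place to -0.70, none past the threshold.

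**Figure D3:**
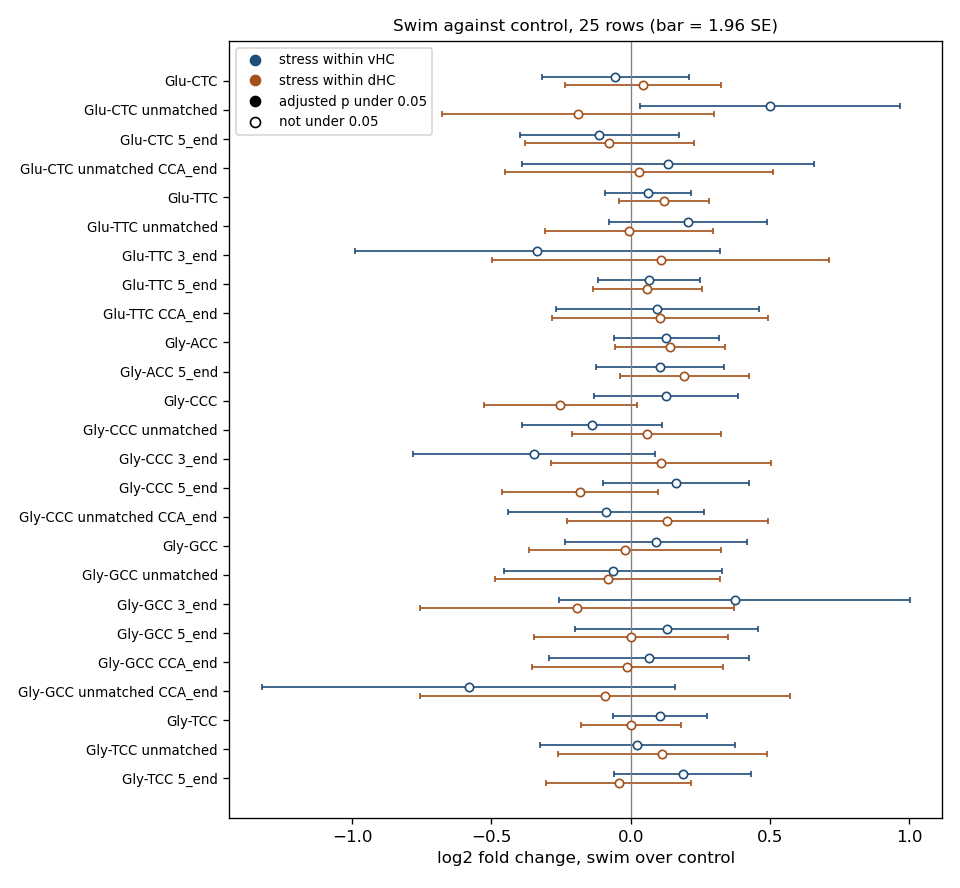
Log2 fold change of swim over control for the 25 tested glycine and glutamate tRNA entries, in vHC (blue) and dHC (brown), with bars for the 95% interval. Open circles are not past an adjusted p of 0.05, and all circles are open.

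For Gly-GCC and Glu-CTC the direction of the stress difference in block 3 was the opposite of that in blocks 1 and 2. For Gly-GCC the swim minus control difference of mean log2 CPM in vHC was 0.28 in block 1, 0.09 in block 2 and -0.41 in block 3. In dHC it was 0.22, 0.05 and -0.45 in the same order. For Glu-CTC the values in the same order were 0.01, 0.07 and -0.70 in vHC and 0.18, 0.40 and -0.66 in dHC. Each block mean rests on 2 libraries per group, or 4 in control vHC of block 1, and the difference between blocks was not tested.

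As a share of all counts, the mean ± SD of glycine and glutamate tRNAs in vHC was 2.19% ± 0.739 without swim (n = 8) and 2.05% ± 0.278 with it (n = 6). In dHC it was 2.17% ± 0.468 and 2.12% ± 0.284 (n = 6 for both). Both differences were smaller than 1 SD.

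The share of each end was then compared, as log2 odds of an end within its whole entry, for 57 end entries of which 10 were of glycine or glutamate tRNAs. No share changed past the threshold with swim in either region or differed in that change between regions, and 0% of the 57 were called. The 5′ share of Gly-GCC in vHC was 71.1% ± 2.34 without swim (SD, n = 8) and 73.4% ± 3.19 with it (SD, n = 6). The log2 odds differed by 0.19 (standard error 0.08, adjusted p = 0.872 in limma), with an unadjusted p under 0.05. The swim mean was higher in each block, by 2.72, 0.232 and 5.26 percentage points. A two-sided exact permutation test of the percentages over all blocks gave p = 0.146, and within blocks, as an alternative chosen after seeing the data, p = 0.0648 (0.95 after adjustment over the 57 shares, smallest possible p = 0.00185). In dHC the means were 70.7% ± 1.69 and 72.0% ± 2.76 (SD, n = 6 for both), and the log2 odds differed by 0.09 (standard error 0.09).

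The 5′ share of Glu-CTC leaned the other way. In vHC it was 54.2% ± 2.41 without swim (SD, n = 8) and 50.9% ± 3.63 with it (SD, n = 6). In dHC it was 50.6% ± 3.41 without and 46.7% ± 6.18 with swim (SD, n = 6 for both). The swim mean was lower in each of the 3 blocks in vHC (by -3.48, -4.51 and -1.88 percentage points) and in dHC (by -5.21, -1.83 and -4.64). The exact permutation test over all blocks gave p = 0.0676 in vHC and p = 0.221 in dHC. Within blocks, the alternative chosen after seeing the data, the permutation test gave p = 0.0759 and p = 0.231 (0.95 and 0.748 after adjustment). Neither difference in log2 odds passed the threshold, with -0.21 and an adjusted p = 0.896 in limma for vHC (standard error 0.13) and -0.23 and an adjusted p = 0.919 for dHC (standard error 0.14).

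The next comparison was of the regions. In control mice 1 of the 25 entries, the unmatched CCA end of Gly-CCC, differed between dHC and vHC, where 15.8% of all entries did (6.44% higher and 9.34% lower in dHC). After swim it was again this entry alone, where 17.4% of all entries differed (7.57% higher and 9.82% lower). Whole entries of glycine and glutamate tRNAs were not called in either state, and the log2 difference of dHC over vHC in control mice was 0.04 for Gly-GCC (standard error 0.17) and -0.13 for Glu-CTC (standard error 0.14). The interval for Gly-GCC ran from a fold of 0.821 to 1.29.

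The unmatched CCA end of Gly-CCC holds counts that reach the added CCA at the 3′ end. Its normalized CPM had a lowest, median and highest value of 17.8, 32.4 and 94.8 in control vHC and of 32.9, 59.5 and 176 in control dHC. After swim the values were 22.1, 40.6 and 49.5 in vHC and 33.2, 69.9 and 143 in dHC. Levels tended to be higher in dHC, but the regions overlapped in both states.

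The log2 difference was 0.52 in control mice (standard error 0.18, adjusted p = 0.0413 in edgeR), a fold of 1.44, and 0.74 after swim (standard error 0.19, adjusted p = 0.00516), a fold of 1.67. The mean log2 difference within blocks 1, 2 and 3 was 1.21, 1.17 and 0.94 in control mice and 1.47, 0.00122 and 1.41 after swim, so dHC was higher in each block in control mice and level with vHC in block 2 after swim. Its share of the whole unmatched entry was also higher in dHC of control mice, with 18.5% ± 6.91 (SD, n = 6) against 12.8% ± 5.25 (SD, n = 8). For this share the difference in log2 odds was 0.83 (standard error 0.24, adjusted p = 0.0482 in limma), where 3.51% of the end entries were called. After swim it was 0.56 (standard error 0.25, adjusted p = 0.683), the 3′ share of Gly-CCC gave 0.78 (standard error 0.27, adjusted p = 0.439), and 0 of the 57 shares were called, with 3 at an unadjusted p under 0.05.

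**Figure D4:**
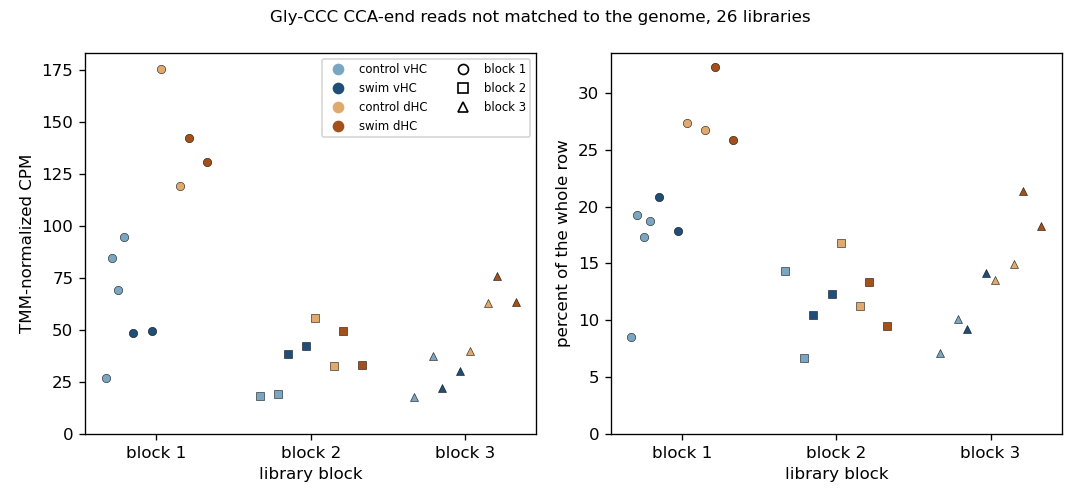
Unmatched CCA end counts of Gly-CCC by block in 26 libraries, as TMM-normalized CPM (left) and as percent of the whole unmatched entry (right). Points are libraries and colour gives the group. The highest values, up to 176 CPM and 32.2%, are dHC libraries of block 1.

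The call in control mice depended on single libraries and settings. It was lost when any of 15 of the 26 libraries was left out (control vHC 1, 7, 9, 17, 23, 25 and 31, swim vHC 19 and 27, control dHC 18, 26 and 32, and swim dHC 16, 28 and 30), with log2 differences between 0.41 and 0.70 over all 26. The call after swim was kept whichever library was left out (0.60 to 0.88). Without surrogate variables neither was past the threshold (log2 difference 0.84 with an adjusted p = 0.261 in control mice and 1.09 with an adjusted p = 0.158 after swim, both in edgeR), and with block in their place both were (log2 differences of 1.05 and 0.93). When region was put in the null model of the surrogate variables, the signs turned (-0.26 and -0.069). Then 16 of the 25 entries were called in control mice and 12 after swim, beside 128 and 113 of the 621 entries of the whole table. The call on the share was lost without any of 24 libraries, and kept without control vHC 13 or control vHC 17, with log2 odds from 0.69 (without control vHC 1) to 0.996 (without control vHC 17). The summed level of 3 oligodendrocyte miRNA entries (mir-219a and mir-338) was between 3095 and 4336 CPM in vHC and between 3984 and 6716 in dHC. Of these entries, 0 were at 0. Choroid plexus entries summed to between 2051 and 2567 CPM in vHC and between 1507 and 4782 in dHC. For leukocytes the ranges were 127 to 356 and 132 to 423, and for endothelium 3335 to 9681 and 5404 to 10384. Red blood cell entries ran lower in dHC, from 597 to 878 against 689 to 906 in vHC. The part of these markers in the region results was not tested. Different proportions of cells and different levels per cell cannot be told apart in tissue libraries.

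A further pair of Gly-CCC entries had an unadjusted p under 0.05 for region after swim. Unmatched Gly-CCC differed by 0.33 (standard error 0.14, adjusted p = 0.106 in edgeR) and the 3′ end of Gly-CCC by 0.55 (standard error 0.22, adjusted p = 0.0872), both with higher values in dHC. With region in the null model of the surrogate variables, unmatched Gly-CCC turned to -0.90 and was past the threshold (adjusted p = 0.0163 in edgeR).

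The last comparison was of the 3 blocks. Here 6 of the 25 entries differed, where 48.0% of all entries did. Against block 1, 8 of the 25 differed in block 2 (46.9% of all entries), 4 higher and 4 lower (20.8% and 26.1%). In block 3 it was 8 as well (45.2% of all entries), again 4 higher and 4 lower (21.1% and 24.2%). Between blocks 2 and 3, 0 of the 25 and 0% of all entries were called in edgeR, with 0 and 64 at an unadjusted p under 0.05. The number called jointly among the 25 fell to 3 without control dHC library 8, where 260 entries of the whole table were called.

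The entries called lower in blocks 2 and 3 than in block 1 were of Gly-CCC and Gly-ACC. The unmatched CCA end of Gly-CCC had a lowest, median and highest CPM of 27, 89.9 and 175.6 in block 1, of 18.2, 36.0 and 55.7 in block 2 and of 17.8, 38.9 and 76.2 in block 3. Relative to block 1, blocks 2 and 3 were at -1.38 and -1.21 on the log2 scale (standard error 0.23 for both), and the joint test of blocks gave an adjusted p of 1.98e-05 in edgeR. The 3′ end of Gly-CCC was at -1.41 (standard error 0.21, adjusted p = 9.39e-06 in edgeR) and -1.13 (standard error 0.21, adjusted p = 0.000101), with levels under 20 CPM in every library. For unmatched Gly-CCC the differences were -0.44 and -0.45 (standard error 0.17 for both, adjusted p = 0.0454 and 0.0380 in edgeR), and these calls were lost in 11 and 5 of the 26 fits that leave out a library. For the 5′ end of Gly-ACC they were -0.35 and -0.34 (standard error 0.13 for both, adjusted p = 0.0330 and 0.0397 in edgeR), lost in 3 and 6.

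The entries called higher than in block 1 were of both glutamate tRNAs, with 1 entry each of Gly-TCC and Gly-CCC. Unmatched Glu-TTC had a CPM of 462 to 892 in block 1 (median 631), 647 to 1174 in block 2 (median 1030) and 977 to 1530 in block 3 (median 1073). All libraries of block 3 were above all of block 1. The log2 difference was 0.69 in block 2 and 0.91 in block 3, each with a standard error of 0.13 (joint adjusted p = 7.07e-06 in edgeR). The mean ± SD of the unmatched share of Glu-TTC in blocks 1, 2 and 3 was 45.5% ± 2.82, 54.3% ± 1.67 and 57.5% ± 4.11 (n = 10, 8 and 8), and no library of block 1 reached the lowest share of the other blocks.

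Unmatched Glu-CTC differed from block 1 by 1.39 and 1.27 (standard error 0.50 for both), past the threshold in each of these 2 contrasts (adjusted p = 0.0345 and 0.0431 in edgeR) but not in the joint test (adjusted p = 0.0545 in edgeR). These calls were lost when any of 7 (block 2) or 12 (block 3) of the 26 libraries was left out. The 5′ end of Glu-TTC was higher by 0.41 and 0.37 (standard error 0.14 for both, adjusted p = 0.0208 and 0.0354 in edgeR), and the call in block 3 was lost in 9 such fits. The 5′ end of Gly-CCC was higher in block 3 by 0.38 (standard error 0.14, adjusted p = 0.0347 in edgeR), lost in 7. Unmatched Gly-TCC, at no more than 10.2 CPM, was higher in block 2 by 0.41 (standard error 0.17, adjusted p = 0.0445 in edgeR), a call lost when any of 17 of the 26 libraries was left out (0.35 to 0.51). The most abundant entries differed less, with 0.10 and 0.35 for Gly-GCC and 0.13 and 0.24 for Glu-CTC, none past the threshold.

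Some entries had an unadjusted p under 0.05 without passing the threshold. The CCA end of Glu-TTC was at 0.37 in block 2 and 0.41 in block 3 (standard error 0.17 for both, adjusted p = 0.0780 and 0.0537 in edgeR). Gly-ACC was at -0.21 and -0.22 (standard error 0.10 for both, adjusted p = 0.0914 and 0.0722 in edgeR). In block 2 the CCA end of Gly-GCC was at -0.38 (standard error 0.18, adjusted p = 0.0780 in edgeR). In block 3 the differences were 0.39 for Gly-CCC (standard error 0.18, adjusted p = 0.0669 in edgeR), 0.35 for Gly-GCC (standard error 0.16, adjusted p = 0.0704) and 0.33 for its 5′ end (standard error 0.15, adjusted p = 0.0779).

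**Figure D5:**
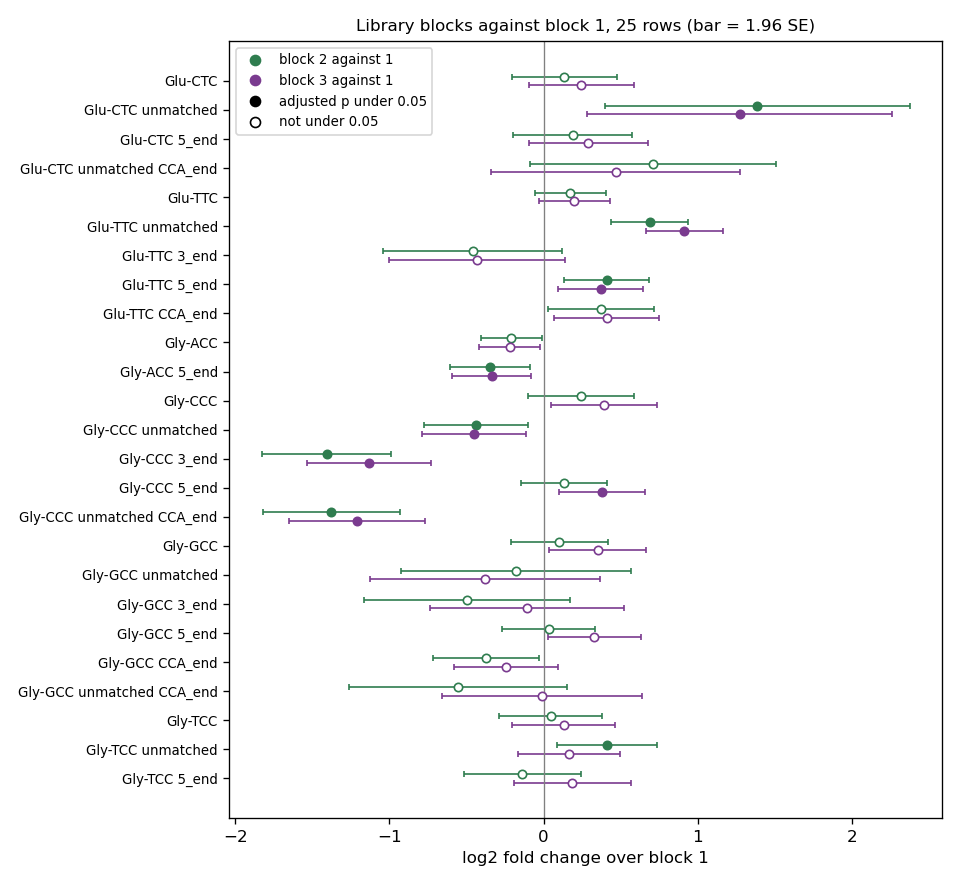
Log2 difference of blocks 2 (green) and 3 (purple) from block 1 for the 25 tested entries, with bars for the 95% interval. Filled circles are past an adjusted p of 0.05, and the differences furthest from 0 are those of the Gly-CCC 3′ end (-1.41) and unmatched Glu-CTC (1.39).

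Shares of ends differed between blocks for 5 of 10 entries, where 31.6% of the 57 did. Against block 1, 1 was higher and 3 lower in block 2 (14% of the 57 each way, 28.1% in all), and 1 was higher and 2 lower in block 3 (22.8% and 5.26%, 28.1% in all). Between blocks 2 and 3, 0 of the 57 were called in limma, with 4 at an unadjusted p under 0.05. The following are mean ± SD for blocks 1, 2 and 3 (n = 10, 8 and 8). The 5′ share of Glu-TTC was 34.6% ± 3.13, 40.4% ± 1.80 and 38.7% ± 3.09. That of Gly-GCC was 72.9% ± 2.40, 69.8% ± 1.68 and 72.2% ± 2.73. The 3′ share of Gly-CCC was 0.547% ± 0.189, 0.162% ± 0.0591 and 0.211% ± 0.127, so block 1 had the lowest mean for Glu-TTC and the highest for the other two. The 5′ share of Gly-TCC and the unmatched CCA share of Gly-CCC were the other two that differed. In log2 odds, Glu-TTC was at 0.36 in block 2 (standard error 0.10, adjusted p = 0.00816 in limma) and 0.26 in block 3 (standard error 0.10, adjusted p = 0.0435, lost without any of 13 libraries). The 5′ share of Gly-GCC was at -0.23 in block 2 (standard error 0.07, adjusted p = 0.0241 in limma) and 0.17 in block 3 against block 2 (standard error 0.08, adjusted p = 0.534). The 3′ share of Gly-CCC was at -1.74 and -1.51 (standard error 0.22 for both, adjusted p = 1.82e-06 and 8.87e-06 in limma) and its unmatched CCA share at -1.10 and -0.90 (standard error 0.21 for both, adjusted p = 0.000205 and 0.00193). The 5′ share of Gly-TCC was at -0.34 in block 2 (standard error 0.14, adjusted p = 0.0580 in limma) and 0.47 in block 3 against block 2 (standard error 0.14, adjusted p = 0.159). The CCA share of Gly-GCC, not past the threshold, was at -0.62 and -0.65 (standard error 0.26 for both, adjusted p = 0.0827 and 0.0657 in limma). The count was 3 without swim vHC 19 or 21, control dHC 18, or swim dHC 22 or 30. The rRNA share, which moved with block as well, was 4.29% ± 0.667, 5.41% ± 0.579 and 6.33% ± 0.615 in the same order. The summed CPM of 3 leukocyte marker entries was 304 ± 84.9, 186 ± 40.1 and 212 ± 38.3, that of 1 endothelial entry 6265 ± 1377, 7137 ± 1147 and 8749 ± 1061 and that of the 3 oligodendrocyte entries 3860 ± 927, 4964 ± 1227 and 4745 ± 812, with 0 of them at 0 and with ranges that overlapped between blocks. For choroid plexus the sum was 2780 ± 1027, 2586 ± 381 and 2350 ± 325, and for red blood cells 765 ± 101, 735 ± 79.3 and 707 ± 85.3. Their ranges overlapped between blocks as well. The part of rRNA and of these markers in the block results was not tested.

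The patterns over the 26 libraries of Gly-GCC and Glu-CTC were compared with those of 541 other entries, which left out glycine and glutamate tRNAs and tRNA ends. The measure was the mean absolute difference of centred log2 CPM. It is small where 2 entries move together, but also where both vary little, and it is larger for noisy entries. Correlation between entries was not tested. Of the 541, the entry most like Gly-GCC was Lys-CTT, with 0.165, followed by mir-330 (0.229), His-GTG (0.229), mir-28a (0.240) and Met-CAT (0.241). For Glu-CTC these were Met-CAT and Lys-CTT (both 0.238), Val-AAC (0.238), mir-760 (0.241) and Val-CAC (0.242). The median over the 541 entries was 0.425 for Gly-GCC and 0.442 for Glu-CTC. Gly-GCC and Glu-CTC differed from each other by 0.182. Gly-CCC, Glu-TTC and Gly-TCC differed from Gly-GCC by 0.173, 0.238 and 0.273. From Glu-CTC they differed by 0.188, 0.192 and 0.211 in the same order. All glycine and glutamate tRNAs compared were thus nearer to Glu-CTC than any of the 541 entries. All these values share the same libraries and scaling.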

How the data were processed

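Small RNA libraries were made with molecular tags. Per the study's methods, the authors removed adapters (cutadapt), kept 1 read per sequence and tag, and then ran Sports on the reads without tags to quantify RNAs. The deposited values are expected counts per entry, not normalized, of which 29.5% were not whole, and they were rounded for edgeR and DESeq2. The labels name GRCm38. Of the table's columns, each matched 1 library by title. Of the columns, 0 were identical to another.

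The low count filter was edgeR's filterByExpr, with a minimum count of 10 and total of 15 and the 4 groups as grouping. Library size and TMM factors came from all entries but tRNA ends. Tests were edgeR quasi-likelihood fits of region, stress, their interaction and 2 surrogate variables (sva, intercept alone as null model), on 621 entries, with Benjamini-Hochberg adjustment over all of them. Of the first surrogate variable's variance, block accounted for 70.6%. Block was tested with block in place of surrogate variables. End shares were tested with limma on log2 odds (pseudocount 0.5) with block as covariate, for ends with at least 10 counts in the whole entry of every library and a mean of 10. Each fit used all 26 libraries. Intervals are normal 95% intervals from the standard errors.

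Members and lists were chosen with earlier results of these data known. Named entries are all members past the filter, with full statistics for the most abundant whole and 5′ end entry of each amino acid and any with an unadjusted p under 0.05. Marker lists give levels only. Alternatives changed the scaling, filter, tool, covariates, pseudocount and libraries, and a replicate block and a permutation within blocks were added after seeing the data. R 4.3.3, edgeR 4.0.16, limma 3.58.1, sva 3.50.0, DESeq2 1.42.0, Python 3.11.15 and matplotlib 3.10.9 were used. The fits were tested on simulated data. Sequences of these tRNAs are not shown here.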

Additional observations from a re-analysis of the deposited data

Results flagged for a closer look

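Of 144 sets of values of 1 measure in 1 group, 7 held a library far from the others by Dixon's test. Chance gives about 5% of sets, so the number flagged was near that of chance. Of the 7 sets, 4 are of control dHC library 26. Its normalized CPM was 8384 for Glu-CTC (others 4113 to 5662) and 4659 for its 5′ end (others 2057 to 2860). For Gly-CCC it was 4305 (others 2312 to 2829) and for its 5′ end 1764 (others 942 to 1228). The 5′ end counts lie within the whole entries, so these 4 are not separate observations. In control vHC library 17, CCA end counts were 5.20% of unmatched Glu-CTC (others 0.50% to 1.55%) and 3.88% of genome-matched Glu-TTC (others 1.38% to 2.55%). In swim dHC library 6, the 5′ end made up 57.5% of Gly-CCC (others 38.9% to 44.8%).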

How the results depend on the processing

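No replicate number is shared between groups, and the labels do not say which libraries came from the same mouse. Each dHC library does follow a vHC library of the same condition and block in number, so a replicate block of these 12 neighbouring pairs (24 libraries, without control vHC 1 and 9) was fitted as an alternative chosen after seeing the data. Over 554 entries other than tRNA ends, the correlation within pairs was computed for deviations from the mean of the paired libraries of a group and block. The 2 pairs of a condition and block give the same value. The correlations were low and of both signs. For control mice the correlations in blocks 1, 2 and 3 were 0.0842, 0.301 and 0.152. After swim they were 0.253, 0.162 and -0.242. So few values cannot decide whether neighbouring libraries came from the same mouse, and the main fits used no pairing. This replicate block gave 1 glycine or glutamate entry in control mice (89 of 623 entries in all) and 2 after swim (107 of 623). These were the unmatched CCA end of Gly-CCC at 0.89 and 0.97 and, after swim, the 3′ end of Gly-CCC at 0.73. It gave for end shares in control mice 0, with 1 in all (Gly-CCC unmatched CCA share 0.68, adjusted p = 0.0519 in limma).

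For stress and the interaction, 0 glycine or glutamate entries were called under every alternative run, with each library left out as well, and end shares gave 0 too. The interaction gave 1 called entry of the whole table without control dHC 26 (0 to 1 over libraries left out).

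For region in control mice the count of glycine and glutamate entries called was 1. It was 0 with no scaling beyond library size, with library size and TMM over miRNA entries, without the low count filter and without surrogate variables, 2 with block in place of surrogate variables, 16 with region in the null model, and 0 to 1 with libraries left out. The log2 difference of the unmatched CCA end of Gly-CCC under the first 4 of these was 0.48, 0.44, 0.52 and 0.84. After swim it was 0 without surrogate variables, 2 with block, 12 with region in the null model, and 1 to 2 with libraries left out. Region entries called over the 621 of the whole table were 98 and 108, 65 and 54 without surrogate variables, and 128 and 113 with region in the null model. With libraries left out the whole table gave 81 to 113 in control mice and 78 to 115 after swim. With region in the null model, the unmatched CCA end of Gly-CCC turned to -0.26 and -0.069 and unmatched Gly-CCC after swim to -0.90, past the threshold. The study's methods do not state the null model of the surrogate variables. The cause of these sign changes was not tested. The share call in control mice (1 glycine entry, 2 in all) went to 0 and 0 without block and with surrogate variables in its place, to 1 in all with a mean end count of 100, and was 0 to 1 and 0 to 2 with libraries left out.

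For block, no scaling beyond library size gave 3 entries jointly, 4 for block 2 and 3 for block 3 against block 1, in place of 6, 8 and 8. With libraries left out these were 3 to 9, 5 to 9 (5 without control vHC 23, swim dHC 20 or swim dHC 22) and 3 to 12 (3 without control vHC 25 or control dHC 26, 4 without swim vHC 27 or control dHC 8, 5 without swim vHC 5 or control dHC 14). Over the whole table the same fits called 260 to 321, 264 to 314 and 236 to 307 entries, and 0 to 4 between blocks 2 and 3. Shares with a mean end count of 100, where fewer ends are tested, gave 10 called in all jointly, 9 and 7 against block 1 (1 glycine or glutamate entry for block 3) and 1 between blocks 2 and 3, the 5′ share of Gly-TCC. With libraries left out, shares gave 3 to 6 entries and 11 to 19 in all. The swim minus control difference in share of all counts was -0.14 percentage points in vHC and -0.05 in dHC, and of whole tRNA counts 0.729 and -1.20. Without control dHC 24 the dHC value was -0.12.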

Other observations

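Among 124 tested whole and end entries of other tRNAs, 0 were called for stress in either region. For region, 3 were called in control mice (unmatched Arg-CCG, -0.85, unmatched Trp-CCA, -0.55, and the 5′ end of Ile-AAT, 0.58, as log2 of dHC over vHC). After swim the 3 called were the 3′ ends of Cys-GCA (1.27) and Asp-GTC (0.56) and the CCA end of Gln-TTG (0.65). For block, 45 of the 124 were called, with the smallest p for the 5′ end of Lys-CTT (adjusted p = 7.88e-06 in edgeR).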
